A study of Homo sapiens with 43 samples.

Results

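The genes described here are 8 dual-specificity phosphatases that act on, or are related to those that act on, mitogen-activated protein (MAP) kinases: DUSP1, DUSP2, DUSP4, DUSP5, DUSP6, DUSP10, DUSP16 and DUSP22. They were taken by gene symbol, 8 of the 58780 Ensembl genes in each deposited table. RNA was measured by sequencing of polyadenylated transcripts in 43 libraries of 22 groups, 39 from GM12878, a B lymphoblastoid line transformed by Epstein-Barr virus, and 4 from HepG2, a hepatocellular carcinoma line. In a stimulus panel, GM12878 cells received 1 of 6 agents for 6 h, or the vehicles DMSO or PBS. The agents were the glucocorticoid dexamethasone (Dex) at 500 nM, the anthracycline doxorubicin (Dox) at 500 nM, the interferon IFNg at 100 ng/mL, the cytokine TNF at 25 ng/mL, bacterial lipopolysaccharide (LPS) at 10 ng/mL and the interleukin IL2 at 50 U/mL. In a pretreatment experiment, GM12878 cells received 10 µM BRM014 or DMSO for 30 min and then IFNg, Dex or vehicle for 6 h or 1 h, in 12 groups. HepG2 cells received 10 µM BRM014 or DMSO for 24 h. Each group had 2 libraries except Dox, which had 1. BRM014 is an inhibitor of the ATPase subunits of BAF chromatin remodelling complexes, and a blocked enzyme need not lose its mRNA, so these libraries hold no direct check of the inhibitor. The study asked how far responses to stimuli need BAF activity.

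Dual-specificity MAP kinase phosphatases switch off ERK, JNK and p38 by removing phosphate from both the threonine and the tyrosine of the activation loop. DUSP1, DUSP2, DUSP4 and DUSP5 are nuclear enzymes whose genes are themselves switched on by MAP kinase signalling and by other stimuli, which closes a negative feedback loop, and DUSP1 is a well-known glucocorticoid target in many cell types. DUSP6 acts on ERK in the cytoplasm, DUSP10 and DUSP16 prefer JNK and p38, and DUSP22 is an atypical member that lacks the MAP kinase-binding domain of the others.

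Depth was 12.9 to 22.9 M counts in GM12878 libraries and 3.06 to 19.9 M in HepG2 libraries, where BRM014 replicate 2 was the shallowest library. The B cell markers fixed for this work (MS4A1, CD79A, CD79B, PAX5 and CD22) summed to 896 to 1910 CPM (counts scaled to a common library total) in GM12878 and 0.149 to 2.05 CPM in HepG2, where MS4A1 and PAX5 had no count. Hepatocyte markers (ALB, APOA1, APOB, TTR, AFP and SERPINA1) summed to 14200 to 36200 CPM in HepG2 and 0.943 to 2.62 CPM in GM12878. The 5 T cell markers summed to 34 to 78.1 CPM in GM12878, and the 5 myeloid markers to 1110 to 3070 CPM in HepG2, where S100A8 had no count. A sum does not tell which of its genes carry it, so these sums do not show that T or myeloid cells were present. Nothing in the labels says whether the replicates of a group were cultured apart, so p-values measure only the spread between these libraries, which may be technical. In bulk RNA, fewer expressing cells and less RNA per cell cannot be told apart.

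DUSP1 (ENSG00000120129.5, chromosome 5, 172768096 to 172771195, minus strand, hg38) and DUSP2 (ENSG00000158050.4, chromosome 2, 96143169 to 96145440, minus strand) had the 2 highest log2 fold changes of these genes with Dex at 6 h in both GM12878 experiments (without BRM014), and the 250 bases before their annotated starts are shown for that reason. The sequences are from RefSeq (GRCh38.p14), written 5′ to 3′ on the gene's strand. Capitals mark the cAMP response element palindrome TGACGTCA and the E box CACGTG, both of which read the same on either strand.
DUSP1, chr5:172771196-172771445: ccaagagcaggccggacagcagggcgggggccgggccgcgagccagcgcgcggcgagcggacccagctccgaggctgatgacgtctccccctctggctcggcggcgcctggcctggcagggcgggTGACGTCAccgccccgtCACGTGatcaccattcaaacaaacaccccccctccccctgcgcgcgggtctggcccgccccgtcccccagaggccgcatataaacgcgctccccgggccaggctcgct
DUSP2, chr2:96145441-96145690: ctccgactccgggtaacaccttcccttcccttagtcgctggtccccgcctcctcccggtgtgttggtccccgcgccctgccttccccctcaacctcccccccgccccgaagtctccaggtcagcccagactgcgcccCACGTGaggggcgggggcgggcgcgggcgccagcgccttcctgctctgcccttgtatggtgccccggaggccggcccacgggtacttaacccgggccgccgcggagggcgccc
The cAMP response element of DUSP1 began 125 bases and its E box 108 bases before the start. The E box of DUSP2 began 113 bases before its start. RefSeq windows were matched for 6 of the 8 genes, with 7 promoters, and DUSP4 and DUSP5 were not matched. Of 35116 promoters of the table, 1.65% held TGACGTCA in these 250 bases and 6.34% held CACGTG. The palindromic consensus of the glucocorticoid response element and the interferon gamma-activated site TTCNNNGAA were each searched on both strands and found in 0 of the 7 promoters, against 0.327% and 6.57% of all promoters. These matches describe the letters of the windows and not bound sites.

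Levels differed widely between these genes and between the cell lines. Per transcript length, in TPM as the authors deposited them, DUSP22 (126 ± 5.45 TPM, SD, n = 4) and DUSP2 (111 ± 5.95) were the highest in the panel vehicle libraries. DUSP5 followed at 45.7 ± 3.32 TPM. DUSP10 (25.4 ± 1.26) and DUSP16 (22.6 ± 3.21) overlapped between libraries, DUSP4 stood at 13.9 ± 0.676 TPM, DUSP1 at 3.36 ± 0.177 and DUSP6 at 0.17 ± 0.0424. In HepG2 given DMSO the order began with DUSP6 at 160 and 174 TPM and ended with DUSP2, listed at 0 in both libraries. DUSP16, DUSP1 and DUSP22 lay together there, between 15.9 and 28.1 TPM, above DUSP5 at 10.7 and 11.5 TPM, DUSP10 at 2.47 and 2.64 TPM and DUSP4 at 0.32 and 0.4 TPM. The cell lines were grown and sequenced as separate sets, so the lines were set side by side without a test.

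DUSP6 was near 0 in GM12878 and DUSP2 at 0 in HepG2. DUSP6 (ENSG00000139318.7, chromosome 12, 89347235 to 89352501, minus strand) had 0 to 8 counts in the 39 GM12878 libraries, with a median of 3 and a count of 0 in 3 libraries. Its exons overlap a gene on the other strand (ENSG00000274021), and the sources used here do not state whether the counts are by strand. DUSP6 did not pass the filter on low counts in either GM12878 experiment and was not tested there. DUSP2 had 0 counts in all 4 HepG2 libraries, which allows up to 0.151 CPM in the deepest library and 0.982 CPM in the shallowest, at 3 counts per library. So 7 of the 8 genes were tested in each experiment, with DUSP6 missing in GM12878 and DUSP2 missing in HepG2.

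The panel comparisons ask which stimuli changed these genes after 6 h. IFNg and Dex did so, and both sets of changes were below 2-fold. CPM values here and below are scaled over all 43 libraries by the trimmed mean of M-values (TMM). Fold changes are log2 values ± SE from edgeR's quasi-likelihood test, and called means an adjusted p under 0.05 (Benjamini-Hochberg, over all genes of a comparison). Stimuli were compared with the 4 DMSO and PBS libraries together and therefore share these controls. Groups of 2 libraries often do not overlap even without a difference, so overlap is given here and below as a description. The share of all genes without overlap between such groups was not counted.

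**Figure D1:**
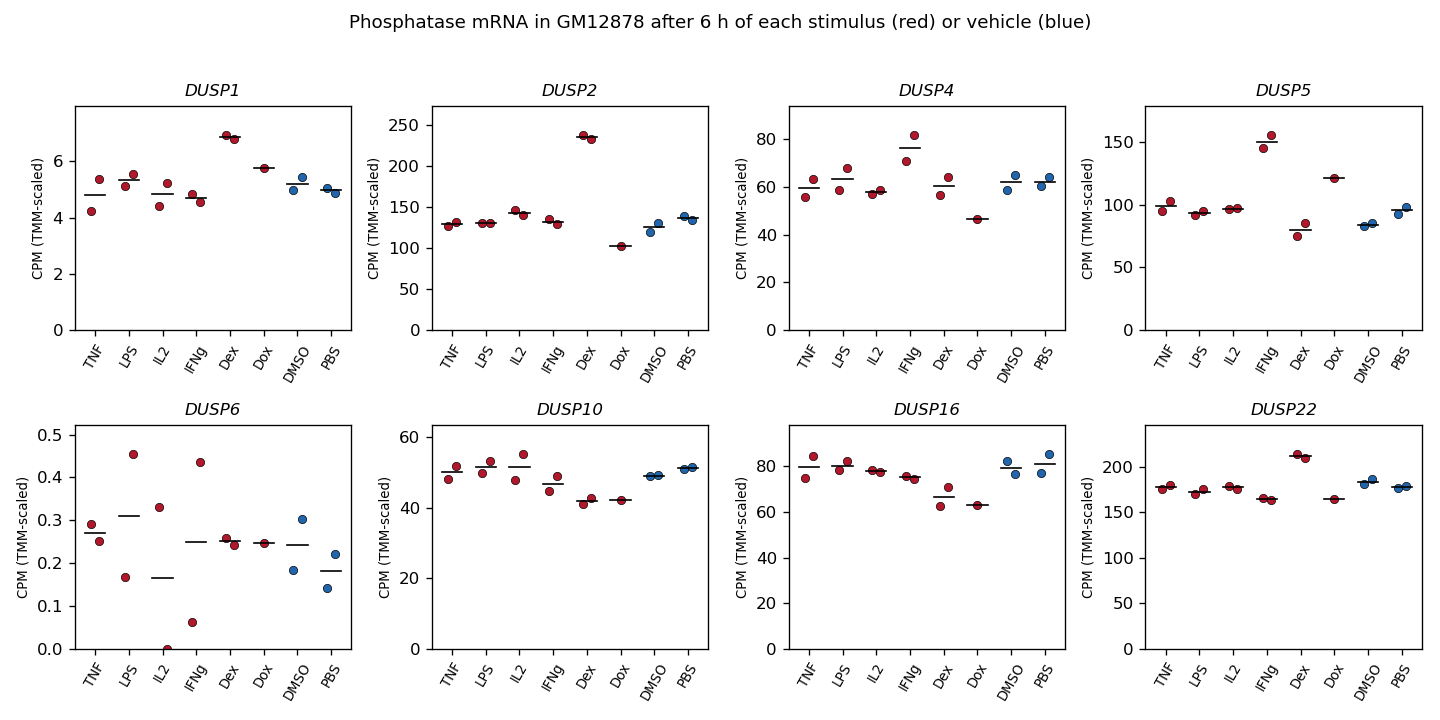
CPM of each gene in each panel library, with a line at the group mean, for the 6 stimuli (red) and the vehicles DMSO and PBS (blue); each axis starts at 0 and has its own scale. DUSP2 stands apart with Dex at 237 and 233 CPM and DUSP5 with IFNg at 145 and 155 CPM.

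With IFNg, DUSP5 and DUSP4 rose and DUSP22 fell, 3 of the 7 tested genes, where 11.9% of all 15775 genes were called. The median log2 fold change was -0.098 over the 7 and -0.008 over all genes. DUSP5 (ENSG00000138166.5, chromosome 10, 110497907 to 110511533, plus strand), a nuclear phosphatase selective for ERK, had 145 and 155 CPM with IFNg, 82.6 and 85.3 with DMSO and 92.7 and 98.4 with PBS. Both IFNg libraries lay above all 4 vehicle libraries, by 0.74 ± 0.048 (adjusted p = 6.08e-14). DUSP4 (ENSG00000120875.8, chromosome 8, 29333064 to 29350684, minus strand) is a nuclear phosphatase of ERK and JNK. It had 70.5 and 81.4 CPM with IFNg, 58.5 and 64.9 with DMSO and 60.2 and 63.8 with PBS, again without overlap (0.30 ± 0.072, adjusted p = 0.00875). DUSP22 had 166 and 163 CPM with IFNg, against 177 to 186 CPM in the vehicle libraries (-0.13 ± 0.039, adjusted p = 0.0182). The other tested genes were not called: DUSP1 gave -0.11 ± 0.16, DUSP2 0.017 ± 0.044, DUSP10 -0.098 ± 0.063 and DUSP16 -0.099 ± 0.057. The DUSP4 call was lost without IFNg replicate 2 (0.19, adjusted p = 0.228). The DUSP22 call was lost without IFNg replicate 1 (adjusted p = 0.0641), IFNg replicate 2 (0.254) or DMSO replicate 2 (0.0618), and with PBS alone as control (0.127) or the fit of only the compared groups (0.06).

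With Dex, 6 of the 7 tested genes were called, 3 up and 3 down, where 25.7% of all genes were called. Their median was -0.039, beside -0.0016 over all genes. DUSP2, a nuclear phosphatase abundant in blood cells, had 237 and 233 CPM with Dex, 120 and 130 with DMSO and 139 and 134 with PBS, well apart (0.84 ± 0.041, adjusted p = 1.26e-17). DUSP1 had 6.93 and 6.81 CPM with Dex and 4.88 to 5.45 CPM in the vehicle libraries, also without overlap (0.43 ± 0.14, adjusted p = 0.0235). DUSP22 rose by 0.23 ± 0.038 (adjusted p = 1.34e-05), to 214 and 210 CPM. The genes that fell were DUSP16 (-0.27 ± 0.058, adjusted p = 5.17e-04), DUSP10 (-0.26 ± 0.063, adjusted p = 0.00172) and DUSP5 (-0.16 ± 0.052, adjusted p = 0.0173). DUSP16 had 62.7 and 70.9 CPM with Dex and 76.5 to 85.5 with vehicle, and DUSP10 had 40.9 and 42.8 CPM with Dex and 48.8 to 51.5 with vehicle. DUSP4 was not called, with 56.4 and 64 CPM with Dex and 58.5 to 64.9 with vehicle (-0.039 ± 0.074, adjusted p = 0.769). DUSP5 overlapped its controls, with 74.9 and 85.2 CPM with Dex against 82.6 to 98.4 with vehicle. The DUSP1 call was lost with DESeq2 (adjusted p = 0.179), with DMSO alone as control (0.0828) and without DMSO replicate 1 (0.0684), PBS replicate 2 (0.0615) or either Dex library (0.117 and 0.0998). The DUSP5 call was lost with DESeq2 (0.0624), DMSO alone (-0.069, 0.461), only the compared groups (0.057), and without DMSO replicate 2 (0.0539), PBS replicate 2 (0.0518) or Dex replicate 1 (-0.08, 0.431).

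TNF, LPS and IL2 gave no call among the 7 genes with edgeR or with DESeq2. Over all genes 0.019%, 0% and 0.203% were called, and 1, 0 and 2 of the 7 had an unadjusted p under 0.05. The largest of these values was DUSP5 with TNF at 94.8 and 103 CPM (0.14 ± 0.05, adjusted p = 0.866). DMSO and PBS did not give a call among the 7 genes either, with edgeR or DESeq2 (0.437% of all genes called, 2 of the 7 at an unadjusted p under 0.05). The single Dox library, given without a test, lay outside the range of the 4 vehicle libraries for 7 of the 8 genes. The same held for 59.2% of the 13085 genes with a mean of at least 1 CPM. That set does not hold DUSP6, the gene that lay within its vehicle range. DUSP5 had 121 CPM with Dox and 89.7 ± 7.17 with vehicle (SD, n = 4), and DUSP1 had 5.76 CPM with Dox and 5.09 ± 0.252 with vehicle. DUSP4 was at 46.4 CPM with Dox and 61.8 ± 2.98 with vehicle, and DUSP2, DUSP10, DUSP16 and DUSP22 also lay below their vehicle range.

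The pretreatment experiment asks whether the responses to IFNg and Dex depend on BAF activity. IFNg and Dex share the vehicle libraries of their arm and time, so their results are not independent of each other.

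**Figure D2:**
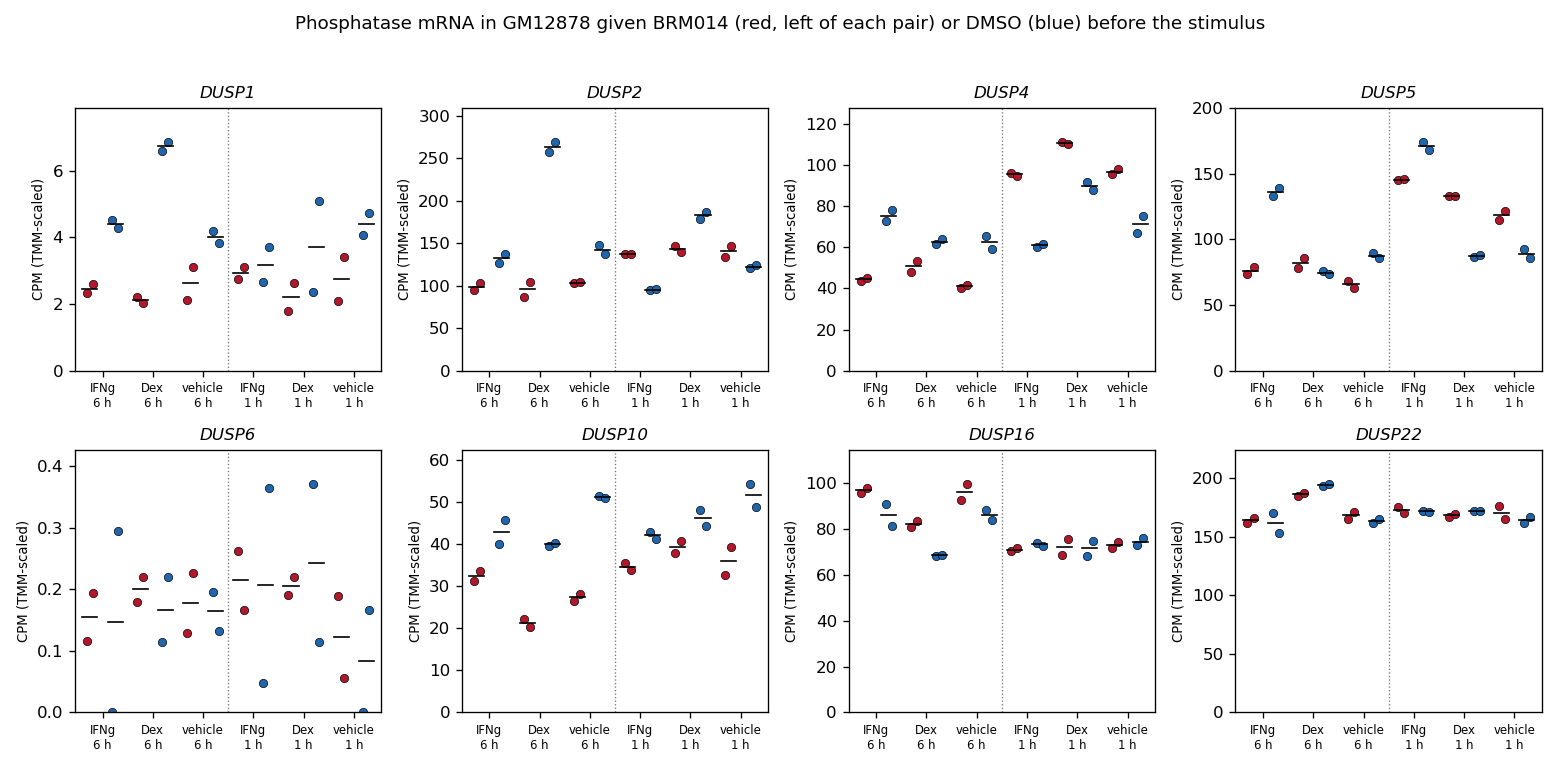
CPM of each gene in each pretreatment library, with BRM014 (red) left of DMSO (blue) for each stimulus and time and a line at each group mean; axes start at 0 and differ in scale. DUSP2 after DMSO and 6 h of Dex, at 257 and 269 CPM, and DUSP5 after DMSO and 1 h of IFNg, at 174 and 168 CPM, are the highest groups of those genes.

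The response of DUSP5 to IFNg was smaller after BRM014 than after DMSO, at both times. At 6 h after BRM014, DUSP5 had 73.3 and 79.1 CPM with IFNg and 68.3 and 63.2 with vehicle (0.22 ± 0.062, adjusted p = 0.0681). At 6 h after DMSO it had 133 and 139 CPM with IFNg and 89.4 and 85.5 with vehicle (0.63 ± 0.058, adjusted p = 2.83e-09). The interaction, which is the response after BRM014 minus that after DMSO, was -0.41 ± 0.084 (adjusted p = 0.0209). At 1 h after BRM014, DUSP5 had 145 and 146 CPM with IFNg and 115 and 122 with vehicle (0.29 ± 0.057, adjusted p = 0.0203). At 1 h after DMSO it had 174 and 168 CPM with IFNg and 92.6 and 85.5 with vehicle (0.95 ± 0.057, adjusted p = 8.37e-13). The interaction at 1 h was -0.66 ± 0.080 (adjusted p = 2.67e-05). IFNg and vehicle libraries did not overlap in any of these 4 comparisons.

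The DUSP5 interaction at 1 h was called under every alternative tried. At 6 h it was lost without BRM014 vehicle replicate 1 (-0.36, adjusted p = 0.298), BRM014 IFNg replicate 1 (-0.36, 0.212) or DMSO vehicle replicate 2 (-0.38, 0.138), and with the fit of only the compared groups (0.216). The rise at 1 h after BRM014 was lost without vehicle replicate 1 (0.25, 0.776) or either IFNg library (0.276 and 0.282) and with only the compared groups (0.07), where that at 6 h was called (0.23, 0.0164).

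DUSP4 and DUSP2 responded to IFNg after DMSO in their own ways. DUSP4 had 72.6 and 78.2 CPM with IFNg and 65.3 and 59.3 with vehicle at 6 h (0.28 ± 0.066, adjusted p = 0.00642). At 1 h it had 60.3 and 61.6 CPM with IFNg and 67.1 and 75.2 with vehicle (-0.22 ± 0.065, adjusted p = 0.271). The groups did not overlap at either time, and the response at 6 h minus that at 1 h was 0.50 ± 0.093 (adjusted p = 0.0018). For DUSP5 the same difference was -0.32 ± 0.081 (adjusted p = 0.0306). DUSP2 fell at 1 h, to 94.5 and 95.9 CPM with IFNg, against 121 and 124 with vehicle (-0.36 ± 0.067, adjusted p = 0.002), and gave -0.11 ± 0.065 at 6 h (adjusted p = 0.416). After BRM014 DUSP4 gave 0.11 ± 0.072 at 6 h and -0.028 ± 0.063 at 1 h, and DUSP2 -0.06 ± 0.068 and -0.039 ± 0.065, with no call. The interactions of DUSP4 and DUSP2 were not called at either time, so a different response between the arms was not shown for them.

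DUSP10, a phosphatase of JNK and p38, had 31.2 and 33.7 CPM with IFNg and 26.5 and 28.1 with vehicle at 6 h after BRM014 (0.25 ± 0.091). After DMSO it had 39.9 and 45.7 CPM with IFNg and 51.4 and 50.9 with vehicle (-0.26 ± 0.083, adjusted p = 0.0571). These opposite values gave an interaction of 0.51 ± 0.12 that was not called (adjusted p = 0.0858). Both the DMSO response (-0.36, 0.0228) and the interaction (0.62, 0.0129) were called without DMSO IFNg replicate 2, and with no filter on low counts (0.0382 and 0.00905).

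After BRM014, IFNg gave 0 calls among the 7 genes at 6 h with edgeR and with DESeq2, where 1.77% of 15183 genes were called and 2 of the 7 had an unadjusted p under 0.05. At 1 h 1 gene was called, beside 0.105% of all. After DMSO 2 of the 7 were called at 6 h (6.62% of all) and 2 at 1 h (0.514% of all). Interactions were called for 1 gene at 6 h (0.198% of all) and the same gene, DUSP5, at 1 h (0.0659% of all). The difference between the times after DMSO was called for 2 genes (2.01% of all). Medians over the 7 after DMSO were -0.011 at 6 h and -0.22 at 1 h, against -0.0036 and -0.0013 over all genes. The DUSP4 call at 6 h was lost without IFNg replicate 2 (0.22, adjusted p = 0.103) or vehicle replicate 2 (0.20, 0.181) and with only the compared groups (0.15). The DUSP2 call at 1 h was lost without IFNg replicate 1 (0.0801) or vehicle replicate 2 (0.0765). The time difference of DUSP5 was lost with DESeq2 (0.0588), with only the compared groups (0.128), and without replicate 1 of IFNg (0.125) or vehicle (0.133) at 6 h or vehicle replicate 2 (0.253) or either IFNg library (0.132 and 0.0771) at 1 h.

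**Figure D3:**
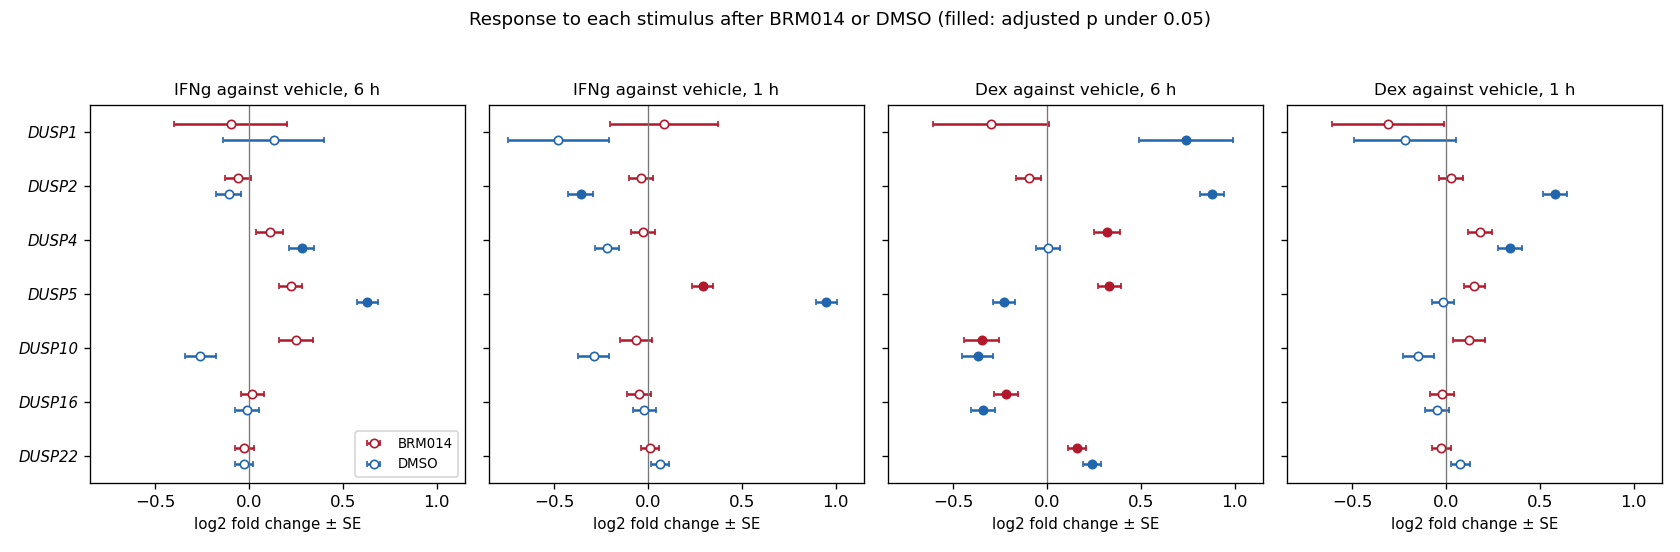
Log2 fold change ± SE of each stimulus over vehicle for the 7 tested genes, after BRM014 (red, upper of each pair) and DMSO (blue); filled points have an adjusted p under 0.05. DUSP2 with Dex lies near 0 after BRM014 and at 0.88 (6 h) and 0.58 (1 h) after DMSO.

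Dex raised DUSP2 at both times after DMSO, and no rise was called after BRM014. At 6 h after BRM014, DUSP2 had 87 and 105 CPM with Dex and 103 and 104 with vehicle, which overlapped (-0.10 ± 0.068, adjusted p = 0.473). At 6 h after DMSO it had 257 and 269 CPM with Dex and 148 and 137 with vehicle, far apart (0.88 ± 0.064, adjusted p = 3.28e-12). The interaction was -0.98 ± 0.093 (adjusted p = 1.40e-08). At 1 h after BRM014, DUSP2 had 147 and 140 CPM with Dex and 134 and 147 with vehicle, again overlapping (0.024 ± 0.065, adjusted p = 0.999). At 1 h after DMSO it had 179 and 187 CPM with Dex and 121 and 124 with vehicle (0.58 ± 0.065, adjusted p = 3.18e-07). The interaction at 1 h was -0.56 ± 0.092 (adjusted p = 0.00266). Beside this, TSC22D3, a glucocorticoid target used as a check of the labels, rose by 4.07 ± 0.068 with Dex at 6 h after DMSO, with an interaction of -1.30 ± 0.095.

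DUSP1 also rose with Dex at 6 h after DMSO. It had 2.22 and 2.03 CPM with Dex and 2.13 and 3.11 with vehicle after BRM014 (-0.30 ± 0.31, adjusted p = 0.693). After DMSO it had 6.61 and 6.86 CPM with Dex and 4.19 and 3.84 with vehicle, without overlap (0.74 ± 0.25, adjusted p = 0.0439). The interaction of -1.04 ± 0.40 was not called (adjusted p = 0.217), at levels of 2.03 to 6.86 CPM. At 1 h after DMSO the 2 Dex libraries disagreed, with 2.35 and 5.1 CPM, against 4.07 and 4.73 with vehicle (-0.22 ± 0.27, adjusted p = 1). The DUSP1 call at 6 h was lost with DESeq2 (0.173) and without any 1 of its 4 libraries (0.144 and 0.164 for Dex replicates 1 and 2, 0.095 and 0.225 for vehicle). Its difference between the times, 0.96 ± 0.37 (adjusted p = 0.128), was called without the second Dex library of 1 h (1.64, 0.00548).

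DUSP5 moved with Dex in opposite directions in the 2 arms at 6 h. It rose after BRM014, to 78.6 and 85.5 CPM with Dex, against 68.3 and 63.2 with vehicle (0.33 ± 0.061, adjusted p = 2.55e-04). It fell after DMSO, to 75.7 and 73.8 CPM with Dex, against 89.4 and 85.5 with vehicle (-0.23 ± 0.06, adjusted p = 0.00561). The interaction was 0.56 ± 0.086 (adjusted p = 5.71e-05). DUSP4 rose after BRM014, to 48.2 and 53.5 CPM with Dex, against 40.3 and 41.8 with vehicle (0.32 ± 0.07, adjusted p = 0.00222). After DMSO it had 61.5 and 63.9 CPM with Dex and 65.3 and 59.3 with vehicle, which overlapped (0.0045 ± 0.066, adjusted p = 0.98), and its interaction was 0.31 ± 0.097 (adjusted p = 0.0825). At 1 h after DMSO DUSP4 rose, to 91.9 and 88 CPM with Dex, against 67.1 and 75.2 with vehicle (0.34 ± 0.064, adjusted p = 0.00189). The response of DUSP4 at 6 h minus that at 1 h was -0.34 ± 0.092 (adjusted p = 0.0165), and that of DUSP2 was 0.29 ± 0.091 (adjusted p = 0.0425).

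A further 3 genes changed with Dex at 6 h in both arms, in the directions seen in the panel. DUSP10 (ENSG00000143507.17, chromosome 1, 221701424 to 221742089, minus strand) fell by 0.35 ± 0.095 after BRM014 (adjusted p = 0.0166), with 22.3 and 20.4 CPM with Dex and 26.5 and 28.1 with vehicle. After DMSO it had 39.5 and 40.3 CPM with Dex and 51.4 and 50.9 with vehicle (-0.37 ± 0.083, adjusted p = 0.00143). DUSP16 (ENSG00000111266.8, chromosome 12, 12473282 to 12562863, minus strand), the other phosphatase of JNK and p38, fell by 0.22 ± 0.062 after BRM014 (adjusted p = 0.0247). After DMSO it had 68.4 and 68.8 CPM with Dex and 88.5 and 83.8 with vehicle (-0.34 ± 0.064, adjusted p = 1.85e-04). DUSP22 (ENSG00000112679.14, chromosome 6, 291630 to 351355, plus strand) rose by 0.16 ± 0.049 after BRM014 (adjusted p = 0.0414), to 185 and 187 CPM, against 165 and 171 with vehicle. After DMSO it had 193 and 195 CPM with Dex and 162 and 165 with vehicle (0.24 ± 0.049, adjusted p = 5.67e-04). Dex and vehicle libraries did not overlap for these genes in either arm. Interactions were 0.021 ± 0.13 for DUSP10, 0.12 ± 0.089 for DUSP16 and -0.078 ± 0.07 for DUSP22 (adjusted p = 0.978, 0.71 and 0.776), which does not show that the arms responded alike. The exons of DUSP22 overlap a gene of the other strand (ENSG00000287265), with the same doubt as for DUSP6.

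Counted over the 7 genes, 5 were called with Dex after BRM014 at 6 h (7.77% of all genes). At 1 h 0 were, with edgeR and with DESeq2 (0.277% of all, 2 of the 7 at an unadjusted p under 0.05). After DMSO 6 of 7 were called at 6 h (15.6% of all) and 2 at 1 h (0.606% of all). Medians over the 7 at 6 h were -0.10 after BRM014 and 0.0045 after DMSO, against -0.0025 and 0.0014 over all genes. Interactions were called for 2 genes at 6 h (2.76% of all) and 1 at 1 h (0.119% of all), under every alternative tried. DUSP4 had a called interaction at 6 h as well without DMSO vehicle replicate 2 (0.39, adjusted p = 0.0429). The difference between the times after DMSO was called for 3 genes (7.78% of all), the third being DUSP16 (-0.28 ± 0.09, adjusted p = 0.0488).

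Several of these Dex calls were lost when 1 library was left out. Omission of 1 of 2 libraries also weakens a test, so a lost call does not show that this library drove it. After BRM014 at 6 h, DUSP4 was lost without Dex replicate 2 (0.25, adjusted p = 0.0978), DUSP10 without replicate 2 of Dex (0.248) or vehicle (0.157), and DUSP16 without either Dex library (0.177 and 0.101) or vehicle replicate 2 (0.284). DUSP22 was lost without any 1 of the 4 libraries (0.138 to 0.286), with DESeq2 size factors (0.0669), DESeq2 (0.0814) and no filter (0.196). After DMSO, DUSP5 at 6 h was lost without Dex replicate 2 (0.0707) or vehicle replicate 1 (0.0637), and DUSP4 at 1 h without replicate 1 of Dex (0.0922) or vehicle (0.265). Each difference between the times was lost without any 1 of at least 4 libraries, with values of 0.24 to 0.33 for DUSP2, -0.26 to -0.31 for DUSP4 and -0.21 to -0.31 for DUSP16. With DESeq2 those of DUSP2 and DUSP16 were lost (0.0669 and 0.136), and that of DUSP16 also with DESeq2 size factors (0.0545) or no filter (0.0563).

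BRM014 itself changed the levels on which these responses were measured. In vehicle-treated cells DUSP4 and DUSP5 fell at 6 h and rose at 1 h, and DUSP10 fell at both times. Not all of this held under IFNg or Dex, as given further below. At 6 h BRM014 lowered 4 of the 7 tested genes in these cells, where 38.5% of all genes were called, and raised none of them. The median was -0.48 over the 7 and 0.0064 over all genes. DUSP10 had 26.5 and 28.1 CPM with BRM014 and 51.4 and 50.9 with DMSO (-0.93 ± 0.086, adjusted p = 3.61e-10). DUSP4 had 40.3 and 41.8 CPM with BRM014 and 65.3 and 59.3 with DMSO (-0.62 ± 0.069, adjusted p = 1.40e-08). DUSP2 fell by 0.48 ± 0.066 on the log2 scale (adjusted p = 6.54e-07), to 103 and 104 CPM with BRM014, against 148 and 137 with DMSO. DUSP5 fell by 0.43 ± 0.06 (adjusted p = 8.35e-07). All 4 genes were without overlap between the arms, which at 2 libraries a group adds little to the calls. DUSP1 had 2.13 and 3.11 CPM with BRM014 and 4.19 and 3.84 with DMSO (-0.62 ± 0.28), which was not called (adjusted p = 0.081).

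At 1 h in vehicle-treated cells BRM014 raised DUSP4 and DUSP5 and lowered DUSP10, 3 of the 7 genes. Of all genes 2.05% were called. DUSP4 had 95.4 and 97.9 CPM with BRM014 and 67.1 and 75.2 with DMSO (0.44 ± 0.064, adjusted p = 3.01e-05). DUSP5 had 115 and 122 CPM with BRM014 and 92.6 and 85.5 with DMSO (0.42 ± 0.058, adjusted p = 2.14e-05). DUSP10 had 32.6 and 39.2 CPM with BRM014 and 54.3 and 48.9 with DMSO (-0.52 ± 0.084, adjusted p = 1.79e-04). The BRM014 effect at 6 h minus that at 1 h was called for 4 genes, beside 18.7% of all: DUSP4 (-1.06 ± 0.094, adjusted p = 4.54e-10), DUSP5 (-0.85 ± 0.084, adjusted p = 4.37e-09), DUSP2 (-0.68 ± 0.093, adjusted p = 2.22e-06) and DUSP10 (-0.41 ± 0.12, adjusted p = 0.0154). The value of DUSP10 was not called without DMSO vehicle replicate 2 (-0.33, 0.1) or BRM014 vehicle replicate 2 (-0.26, 0.175) at 1 h, without BRM014 vehicle replicate 1 at 6 h (0.0759), or with DESeq2 (0.0513). Without BRM014 the 7 genes showed 0 calls between 6 h and 1 h of vehicle with edgeR or DESeq2 (1.43% of all genes, 3 of the 7 at an unadjusted p under 0.05).

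**Figure D4:**
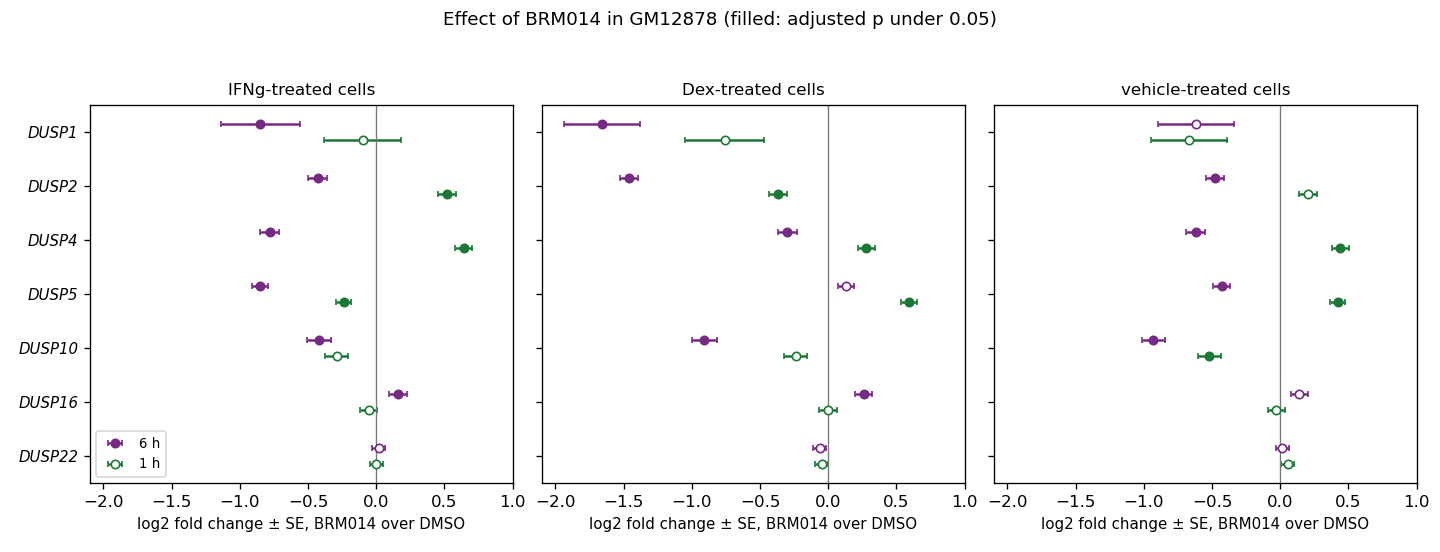
Log2 fold change ± SE of BRM014 over DMSO for the 7 tested genes at 6 h (purple, upper of each pair) and 1 h (green) in IFNg-treated, Dex-treated and vehicle-treated cells; filled points have an adjusted p under 0.05. DUSP4 is below 0 at 6 h and above 0 at 1 h in each of the 3 plots.

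The effect of BRM014 was also measured within each stimulus, on libraries that the comparisons above used too. At 6 h DUSP4 was lower with BRM014 under IFNg (-0.78 ± 0.069, adjusted p = 1.36e-10) and under Dex (-0.30 ± 0.068, adjusted p = 6.14e-04). At 1 h it was higher with BRM014 under IFNg (0.64 ± 0.064, adjusted p = 2.70e-08) and under Dex (0.28 ± 0.062, adjusted p = 0.00814). DUSP10 was lower at 6 h under IFNg (-0.42 ± 0.088, adjusted p = 3.48e-04) and under Dex, with 22.3 and 20.4 CPM with BRM014 and 39.5 and 40.3 with DMSO (-0.91 ± 0.092, adjusted p = 1.93e-09). At 1 h DUSP10 was not called under either stimulus. It gave -0.29 under IFNg, and under Dex it had 37.8 and 40.7 CPM with BRM014 and 48 and 44.4 with DMSO. DUSP5 was lower with BRM014 under IFNg at 6 h, with 73.3 and 79.1 CPM with BRM014 and 133 and 139 with DMSO (-0.85 ± 0.059, adjusted p = 8.39e-13). Under Dex at 1 h it was higher, with 133 CPM in both BRM014 libraries and 86.6 and 88.5 with DMSO (0.59 ± 0.058, adjusted p = 2.10e-08). DUSP2 was higher with BRM014 under IFNg at 1 h, with 137 CPM in both BRM014 libraries and 94.5 and 95.9 with DMSO (0.52 ± 0.066, adjusted p = 2.99e-06). It was lower under Dex at 1 h (-0.37 ± 0.064, adjusted p = 5.86e-04) and under IFNg at 6 h (-0.43 ± 0.067, adjusted p = 7.50e-06). DUSP1 and DUSP2 had their widest gaps under Dex at 6 h, at -1.66 ± 0.28 (adjusted p = 1.64e-05) and -1.46 ± 0.066 (adjusted p = 1.71e-17). Neither gene overlapped between the arms there. DUSP16 was slightly higher with BRM014 at 6 h under Dex (0.26 ± 0.064, adjusted p = 0.0019) and under IFNg (0.16 ± 0.063, adjusted p = 0.0429). DUSP22 gave no call for BRM014 in any of the 6 GM12878 comparisons, with values of -0.063 to 0.053.

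Over these comparisons BRM014 was called for 6 of 7 genes under IFNg at 6 h (33.6% of all) and 3 of 7 at 1 h (2.2% of all). Under Dex the counts were 5 of 7 at 6 h (37.7% of all) and 3 of 7 at 1 h (1.91% of all). The DUSP1 call under IFNg at 6 h (-0.85 ± 0.29) was lost with DESeq2 (0.0689) or without any 1 of its 4 libraries (0.0621 to 0.134). The DUSP16 call under IFNg was lost with DESeq2 size factors, DESeq2, no filter, only the compared groups, and without DMSO IFNg replicate 2 (0.084, 0.479) or either BRM014 IFNg library (0.101 and 0.195). At 1 h the DUSP5 call under IFNg (-0.24 ± 0.055) was lost without any 1 of its 4 libraries (0.0545 to 0.186). The DUSP4 call under Dex was lost without DMSO Dex replicate 2 (0.163) or either BRM014 Dex library (0.0807 and 0.054). DUSP1 under Dex at 1 h was not called (-0.76 ± 0.29, adjusted p = 0.284) but was called without DMSO Dex replicate 1 (-1.20, 0.028), and DUSP5 under Dex at 6 h (0.13 ± 0.061) without BRM014 Dex replicate 1 (0.19, 0.0488).

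In HepG2, 24 h of BRM014 raised DUSP1, DUSP6 and DUSP22 and lowered DUSP5, 4 of the 7 tested genes, where 42.1% of all 13349 genes were called. The median was 0.60 over the 7 and -0.015 over all genes. DUSP6, the cytoplasmic ERK phosphatase, had 542 and 470 CPM with BRM014 and 268 and 284 with DMSO (0.95 ± 0.085, adjusted p = 1.08e-07). DUSP1 had 60.5 and 56.8 CPM with BRM014 and 30 and 32.5 with DMSO (0.98 ± 0.12, adjusted p = 3.76e-06). DUSP22 had 50.8 and 49.2 CPM with BRM014 and 29.3 and 32.5 with DMSO (0.76 ± 0.12, adjusted p = 8.59e-05). DUSP5 had 5.36 and 6.7 CPM with BRM014 and 20.4 and 21.4 with DMSO (-1.84 ± 0.19, adjusted p = 8.54e-07). The arms did not overlap for any of these 4, which at 2 libraries a group adds little. The calls held under every alternative tried.

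DUSP16, DUSP10 and DUSP4 were not called in HepG2. DUSP16 had 84.1 and 71.1 CPM with BRM014 and 64.6 and 83.4 with DMSO, which overlapped (0.15 ± 0.12, adjusted p = 0.333). DUSP10 had 5.36 and 4.66 CPM with BRM014 and 3.34 and 3.66 with DMSO, without overlap (0.60 ± 0.27, adjusted p = 0.0874). DUSP4 had 0.744 and 1.16 CPM with BRM014 and 1.29 and 1.35 with DMSO (-0.62 ± 0.53, adjusted p = 0.379). Cell line, time of exposure and experiment differ together between HepG2 and GM12878, so their parts in the different directions of DUSP1 cannot be told apart.

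**Figure D5:**
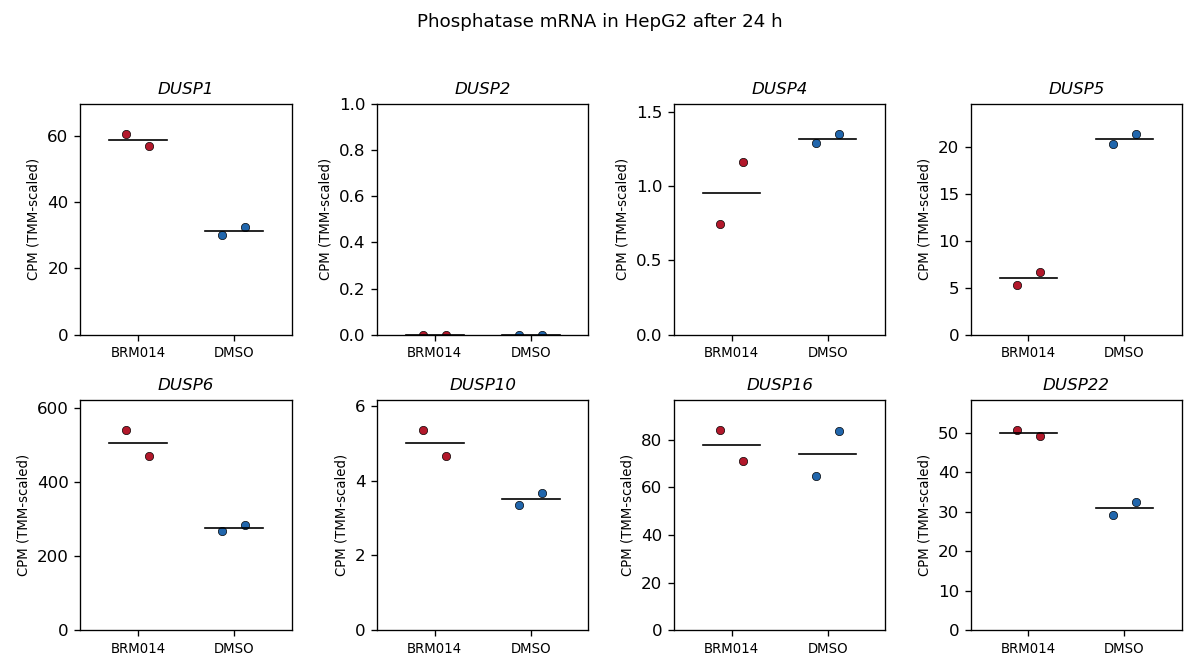
CPM of each gene in each HepG2 library after 24 h of BRM014 (red, left) or DMSO (blue), with a line at the group mean and axes that start at 0. DUSP2 had 0 counts in all 4 libraries, and DUSP1, DUSP5, DUSP6 and DUSP22 do not overlap between the arms.

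Other genes of the pathway were taken from 7 lists with 77 genes: other dual-specificity phosphatases, MAP kinases, MAP kinase kinases, upstream kinases, ERK feedback and target genes, further phosphatases of MAP kinases, and substrates. With IFNg in the DMSO arm 1 rose and 3 fell of 71 tested at 6 h, where 6.62% of all genes were called, and 0 were called at 1 h, beside 0.514% of all. In the panel 4 rose and 5 fell of 74 with IFNg (11.9% of all called), and 18 rose and 15 fell with Dex (25.7% of all). With Dex in the DMSO arm at 6 h 13 rose and 13 fell, where 15.6% of all genes were called. Their median was 0.046, beside 0.0014 over all genes. They included 3 of 8 tested MAP kinases that rose and 0 that fell. Of the 12 substrates 0 rose and 4 fell, and of the 12 tested ERK feedback and target genes 1 rose and 3 fell. Of the 12 upstream kinases 4 rose and 2 fell. Of the 7 MAP kinase kinases 1 rose and 1 fell, the latter being MAP2K6 (-0.39 ± 0.083). MAPK14, which encodes a p38 kinase, rose by 0.34 ± 0.063 and MAP2K1, a kinase that activates ERK, by 0.48 ± 0.056 (adjusted p = 1.41e-04 and 5.00e-08, edgeR). MAP3K8, a kinase upstream of ERK, fell by 0.58 ± 0.079 and PTPN7, a tyrosine phosphatase of MAP kinases in blood cells, by 0.41 ± 0.062. Of the 14 other dual-specificity phosphatases 3 rose and 1 fell, with a median of 0.17. DUSP7, a cytoplasmic ERK phosphatase, rose by 0.51 ± 0.094.

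With BRM014 at 6 h in vehicle-treated cells, 15 of the 71 rose and 20 fell, with a median of -0.084. Over all 15183 genes 2795 rose and 3051 fell (38.5% called), with a median of 0.0064. Of the 12 tested ERK feedback and target genes 8 fell and 0 rose, with a median of -0.76. They included IER3, an early response gene (-1.96 ± 0.12), and MYC (-0.99 ± 0.07). PTPN7 fell by 1.45 ± 0.066. Of the 14 other dual-specificity phosphatases 5 rose and 1 fell, with a median of 0.14: DUSP19 (1.35 ± 0.25) and DUSP14 (0.62 ± 0.13) were among those that rose, and DUSP7 fell by 0.95 ± 0.10. At 1 h 1 of the 71 rose and 3 fell, beside 2.05% of all genes called: EGR1, an early growth response factor, rose (0.74 ± 0.14, adjusted p = 0.00154), and IER3 (-1.96 ± 0.12), DUSP7 (-0.61 ± 0.11) and PTPN7 (-0.25 ± 0.06) fell. Interactions with BRM014 were called for 3 of the 71 with Dex at 6 h (2.76% of all genes), among them EGR1 (-1.12 ± 0.22), and for 0 in the other 3 interaction comparisons. In HepG2 27 of 70 rose and 12 fell, with a median of 0.16. Over all 13349 genes 2580 rose and 3037 fell (42.1% called), with a median of -0.015. Of 14 ERK feedback and target genes 8 rose and 4 fell there, with a median of 0.39, led by EGR1 (2.55 ± 0.10), PHLDA1 (1.34 ± 0.088) and SPRY4 (1.10 ± 0.088), an inhibitor of the pathway to ERK. Of the 14 other dual-specificity phosphatases 5 rose and 2 fell, with a median of 0.24. DUSP18 (2.15 ± 0.26) and SSH2 (0.61 ± 0.14) rose, and DUSP9, another cytoplasmic ERK phosphatase, fell by 1.55 ± 0.10.

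Across the 20 GM12878 groups the ranges were narrow for the JNK and p38 phosphatase DUSP16 (highest group mean 1.54 times the lowest) and for DUSP22 (1.31 times). The ratio was 3.23 for DUSP1, 2.76 for DUSP2, 2.68 for DUSP4, 2.61 for DUSP5 and 2.41 for DUSP10. The highest and lowest groups could come from different experiments, so these ratios can mix treatment with experiment. DUSP22, for example, had a mean of 181 CPM in the panel vehicle libraries and 164 with vehicle at 6 h after DMSO. For DUSP16 the lowest group was the single Dox library. Of the 19 neighbouring pairs in each order of group means, 3 for DUSP1, 5 for DUSP2, 7 for DUSP4, 6 for DUSP5, 5 for DUSP10, 3 for DUSP16 and 4 for DUSP22 had libraries that did not overlap. The other neighbours overlapped. DUSP6, near 0 in all 20 groups, had 0 pairs without overlap and was given no ratio. With at most 2 libraries a group, neighbours often separate without a difference, and these pairs were not tested. The share of pairs without overlap over all genes was not counted, so the counts above cannot be set against it. DUSP1 and DUSP2 were highest with Dex at 6 h, in the panel and in the DMSO arm. DUSP4 was highest after BRM014 and 1 h of Dex and lowest after BRM014 and 6 h of vehicle, and this last group was also the lowest for DUSP5.

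Genes whose group means followed each member most closely over the 12 pretreatment groups were named by Pearson's r of log2 CPM, among tested genes with a mean of at least 5 CPM. These groups share libraries' arms and times, so r is a description. DUSP1 was followed by SMAD7 (r = 0.939), ZC3H12A (0.937) and FBXO38 (0.936), and DUSP2 by HMGN4 (0.911), RNF122 (0.894) and NACC2 (0.891). DUSP4 was followed by CAPZB (0.936), LXN (0.936) and EIF3G (0.929), and DUSP5 by PDRG1 (0.905), NEAT1 (0.898) and EMG1 (0.878). For DUSP10 these were KCTD1 (0.962), IL1A (0.951) and TREX1 (0.946), for DUSP16 NARS1 (0.972), NOC3L (0.963) and NFKB2 (0.961), and for DUSP22 RHEX (0.964), TOX2 (0.963) and FER1L4 (0.962). None of the other genes described here was among the 3 of any member.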

How the data were processed

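RNA of 43 libraries was made into strand-marked libraries of polyadenylated RNA and read as 150 bp pairs, per the labels' protocols. STAR, RSEM and build hg38 are named, per the submitters’ processing notes, without versions. The annotation release used for counting is unknown here. The authors deposited expected counts (estimated counts per gene, unscaled) and TPM (scaled by transcript length and library total), per the file headers.

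Expected counts were rounded to whole numbers (2.51% to 4.8% of values per library were not whole). Of 58780 Ensembl genes 58207 matched a symbol of GENCODE 44, and 746 other rows, all at 0, were left out. The 8 genes and the pathway lists were chosen with earlier results of these data known. Of the listed genes 2 are not reported here and enter no list count or sum. The rule for named genes was all 8 members, up to 3 called genes of the smallest adjusted p per pathway list, and the 3 most alike genes per member. The text prints every called value of a member, and a part of the values that were not called and of the pathway genes.

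The 3 experiments were fitted separately (edgeR 4.0.16 in R 4.3.3, TMM factors, filterByExpr, robust quasi-likelihood, no covariates): 15 panel libraries (8 groups, 15775 genes), 24 pretreatment libraries (12 groups, 15183 genes) and 4 HepG2 libraries (2 groups, 13349 genes). Residual degrees of freedom were 7, 12 and 2, so the groups of an experiment share 1 estimate of the spread. The 29 comparisons used 2-sided tests with Benjamini-Hochberg adjustment over all genes of a comparison, and SE was derived from the log2 fold change and its F statistic. The labels do not say which vehicle goes with which panel stimulus, so DMSO and PBS were pooled. Between replicates, chi-square per degree of freedom was 2.52 or more, a spread beyond read sampling, so no pair was taken as 1 library read again. It does not tell whether the replicates were cultured apart. The fit was also run on counts simulated from its own model with known changes. Such a run cannot tell whether that model holds for these data, and its outcome is not given here. Sequences are RefSeq's (GRCh38.p14), cut to the 250 bases before the start.

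Alternatives were omission of each library, omission of the groups not compared, a block for the replicate number, no filter on low counts, DESeq2 1.42.0 (its Wald test, or its size factors within edgeR), DMSO or PBS alone as control, and a pseudocount of 0.1 in place of 1 CPM for the log2 ratio of Dox. When 1 library is left out, the lone library of that group is assumed to vary like the other groups.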

Additional observations from a re-analysis of the deposited data

Results flagged for a closer look

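Effects that differed between 2 arms or 2 times by a test of the difference itself (edgeR, adjusted p under 0.05 over all genes) are collected here. The response to IFNg after BRM014 minus that after DMSO was -0.41 at 6 h and -0.66 at 1 h for DUSP5. The response to Dex after BRM014 minus that after DMSO was -0.98 at 6 h and -0.56 at 1 h for DUSP2, and 0.56 at 6 h for DUSP5.

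Between the times, after DMSO, the IFNg response at 6 h minus that at 1 h was 0.50 for DUSP4 and -0.32 for DUSP5. The Dex response at 6 h minus that at 1 h was 0.29 for DUSP2, -0.34 for DUSP4 and -0.28 for DUSP16. The effect of BRM014 over DMSO in vehicle-treated cells at 6 h minus that at 1 h was -0.68 for DUSP2, -1.06 for DUSP4, -0.85 for DUSP5 and -0.41 for DUSP10. All values are log2 differences from 2 libraries a group, and those whose call was lost when 1 library was left out are given beside the results.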

How the results depend on the processing

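Of 69 calls on the 8 genes in 29 comparisons, 45 held under every alternative tried and 24 were lost under at least 1. Among results with a call, 0 changed sign. When the fit held only the compared groups, IFNg calls moved to 0 after BRM014 at 1 h (1 in the full fit), 1 after DMSO at 6 h (2), 1 after BRM014 at 6 h (0), 0 for the interaction at 6 h (1) and 1 for the difference of the IFNg response between times (2). With no filter the interaction at 6 h had 2 calls (1) and vehicle at 6 h against 1 h had 1 (0). With DESeq2's Wald test the differences between times had 1 call for IFNg (2) and 1 for Dex (3). The causes were not tested.

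With each library left out in turn, member calls ranged from 1 to 3 for panel IFNg, 4 to 6 for panel Dex, 1 to 2 for IFNg after DMSO at 6 h and at 1 h, 0 to 1 for IFNg after BRM014 at 1 h, 0 to 2 for the IFNg interaction at 6 h, and 1 to 2 for Dex after DMSO at 1 h. They ranged from 1 to 4 for Dex after BRM014 at 6 h, 1 to 2 for the time difference of IFNg and 0 to 2 for that of Dex.

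The replicate number as a block changed 1 call, DUSP1 with BRM014 in vehicle-treated cells at 6 h (-0.63, adjusted p = 0.0488). Differences between replicates 1 and 2 had a median correlation between groups of 0.0539 in the panel (-0.108 to 0.343) and 0.0181 in pretreatment (-0.332 to 0.391). In HepG2 the only pair of groups gave -0.315. These values show no clear pairing by number, but they cannot exclude one. DUSP10 gained a call without a filter or with only the compared groups for BRM014 under IFNg at 1 h (-0.28, 0.0343 and 0.0341), and with only the compared groups also for IFNg after DMSO at 1 h (-0.29, 0.0196). A crossed block in HepG2, added after seeing the data, left its 4 calls in place.

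Counts over all genes moved as well. In the panel DESeq2 called 1226 genes with IFNg (1872 in edgeR) and 2649 with Dex (4052). The fit of only the compared groups gave 349 genes with IFNg after DMSO at 6 h (1005), 128 at 1 h (78), 470 after BRM014 at 6 h (269), 11 and 28 interactions at 6 h and 1 h (30 and 10), 163 with Dex after DMSO at 1 h (92), 154 for the time difference of IFNg (305), 75 for vehicle at 6 h against 1 h (217) and 11 for DMSO against PBS (69). No filter gave 84 and 31 IFNg interactions at 6 h and 1 h, 38 Dex interactions at 1 h (18), 27 and 64 genes for IFNg and Dex after BRM014 at 1 h (16 and 42), 362 for vehicle at 6 h against 1 h and 132 for DMSO against PBS. DESeq2 gave 48 IFNg interactions at 6 h and 133 genes for vehicle at 6 h against 1 h. For TNF, LPS and IL2 (3, 0 and 32 genes), no filter gave 22, 20 and 73, DMSO alone as control 38, 35 and 98, and PBS alone 0 for TNF and 10 for IL2. LPS had 2 with only the compared groups, and with the block TNF and LPS had 5 and 16.

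With a library left out, the counts that moved by over 1.5 times were 0 to 8 for TNF, 1 to 5 for LPS, 11 to 56 for IL2, 2 to 410 for DMSO against PBS and 1060 to 1218 for panel IFNg. After DMSO, IFNg had 663 at 6 h and 50 at 1 h, and Dex 61 at 1 h. After BRM014, IFNg had 170 at 6 h and 10 at 1 h, and Dex 769 (1179) at 6 h and 27 at 1 h. Interactions were 10 to 163 at 6 h and 6 at 1 h for IFNg, and 267 (419) at 6 h and 8 to 10 at 1 h for Dex. BRM014 gave 3150 (5109) under IFNg at 6 h, and at 1 h 186 to 207 (334) under IFNg, 151 to 174 (290) under Dex and 149 to 203 (312) with vehicle. Vehicle at 6 h against 1 h had 27 to 60, and the time difference of IFNg 157 to 203.

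DUSP1 in GM12878 and DUSP4 in HepG2 rest on few reads and have wide errors, and DUSP6 in GM12878 was too low to test. Another scaling (DESeq2 size factors) shifted the median of all genes by at most 0.016 on the log2 scale. Both scalings assume that most genes do not change, so they cannot show a shift shared by most genes.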
